A study of Mus musculus with 9 samples.

Results

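The circadian clock genes were followed in DCs grown from mouse bone marrow, by matching 10 gene symbols to the deposited counts: *Clock*, *Per1*, *Per2*, *Per3*, *Cry1*, *Cry2*, *Nr1d1*, *Nr1d2*, *Dbp* and *Bhlhe40*. Each symbol matched 1 of the 55471 genes counted, and all 10 passed edgeR's filter on low counts, which left 16260 genes to test. The cells came from wild-type female C57BL/6 mice aged 8 to 20 weeks and were differentiated with GM-CSF, a growth factor that yields DC-like cells together with macrophage-like cells. They were left unstimulated or received LPS (100 ng/mL), a bacterial membrane component sensed by a Toll-like receptor, or IFN-β (1000 U/mL), a type I interferon, for 6 h. Total RNA depleted of ribosomal RNA was sequenced as 3 libraries per condition, lettered A, B and C, and values per library are given in that order. The labels do not say whether the libraries came from separate mice or cultures, so p-values measure the spread between these libraries, which may be technical. The time of day of the harvest is not given in the sources used here, and a single time point after stimulation shows a level and not a rhythm.

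The mammalian clock is a transcriptional feedback loop that runs in almost every cell, immune cells included. CLOCK pairs with BMAL1 (the product of *Arntl*) and activates genes that carry E-box sequences, among them the *Per* and *Cry* genes, whose protein products return to the nucleus and block CLOCK and BMAL1. The nuclear receptors REV-ERBα and REV-ERBβ, encoded by *Nr1d1* and *Nr1d2*, repress *Arntl* through ROR elements in a further loop, and DBP, an output of the loop, activates genes through D-boxes. *Bhlhe40* encodes DEC1, a repressor that binds E-boxes, and is also known in immune cells as a regulator of cytokine genes.

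The sequence elements through which these genes regulate each other were looked for in their promoters. RefSeq promoter windows on GRCm38.p6, each with 250 bases before and 50 after an annotated start, were available for 8 of the 10 genes (11 windows). *Per2* and *Bhlhe40* had no window and were not searched. Both strands were searched for the E-box CACGTG, the E′-box CACGTT, the D-box TTATGTAA or TTACGTAA, the ROR element and the cAMP response element TGACGTCA. Of 32851 promoter windows in all, 7.15% held the E-box, 4.68% the E′-box, 1.06% the D-box, 0.219% the ROR element and 1.79% the cAMP response element. The stretches from base -250 to base -11 before the start are shown for the 5 genes with a match, because they differ in which element they carry while 3 of the genes fell under LPS and 2 did not pass the test. Capitals mark the matches, and AACGTG is the E′-box read on the other strand.
Per1 (chr11:69098699-69098938, plus strand): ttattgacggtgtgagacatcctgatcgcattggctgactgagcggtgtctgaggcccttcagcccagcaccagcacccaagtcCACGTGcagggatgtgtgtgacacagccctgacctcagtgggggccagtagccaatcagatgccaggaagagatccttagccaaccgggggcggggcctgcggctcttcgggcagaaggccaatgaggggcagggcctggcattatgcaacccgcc
Per3 (chr4:151044676-151044915, minus strand): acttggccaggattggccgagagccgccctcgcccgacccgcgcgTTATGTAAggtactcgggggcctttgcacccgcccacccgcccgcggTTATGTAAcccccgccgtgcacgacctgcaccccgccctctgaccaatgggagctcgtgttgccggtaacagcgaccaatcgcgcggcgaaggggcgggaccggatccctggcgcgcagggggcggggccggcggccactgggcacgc
Cry1 (chr10:85185065-85185304, minus strand): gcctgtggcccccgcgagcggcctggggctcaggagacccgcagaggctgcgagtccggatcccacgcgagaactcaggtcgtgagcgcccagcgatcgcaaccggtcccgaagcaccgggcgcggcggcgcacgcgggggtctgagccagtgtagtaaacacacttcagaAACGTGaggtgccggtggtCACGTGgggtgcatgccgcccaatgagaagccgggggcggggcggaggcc
Cry2 (chr2:92434080-92434319, minus strand): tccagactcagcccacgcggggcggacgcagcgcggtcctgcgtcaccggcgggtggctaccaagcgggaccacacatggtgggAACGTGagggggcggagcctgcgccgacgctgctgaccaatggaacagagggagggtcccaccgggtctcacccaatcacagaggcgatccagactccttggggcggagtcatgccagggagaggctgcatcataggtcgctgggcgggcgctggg
Nr1d1 (chr11:98775388-98775627, minus strand): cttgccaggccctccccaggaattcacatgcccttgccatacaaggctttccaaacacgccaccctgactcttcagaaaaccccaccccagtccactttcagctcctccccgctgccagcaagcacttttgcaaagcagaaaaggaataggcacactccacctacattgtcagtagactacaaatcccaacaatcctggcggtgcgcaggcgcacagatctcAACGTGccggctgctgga
*Per1* held 1 E-box in 1 of its 2 windows, from base -166 to base -161 before the start of that window. Its other window, at another annotated start, held none of the motifs. *Cry1* held 1 E-box and 1 E′-box. In *Per3* the D-box TTATGTAA occurred in 2 places, at bases -205 to -198 and -158 to -151. *Cry2* and *Nr1d1* each held 1 E′-box. No ROR element and no cAMP response element was found in the windows of the 8 genes, and *Clock*, *Nr1d2* and *Dbp* held none of the 5 motifs. The longest stretch free of annotated exons was 91 bases in the *Dbp* window (-250 to -160). In the *Clock* windows it was 83, 106 and 250 bases. Sequence outside the windows was not searched. A match of letters is a description of the window and not evidence of a bound site.

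Total counts ranged from 33425803 to 43735199 per library. The TMM factors, which scale for composition, were 1.18 to 1.26 in unstimulated, 0.783 to 0.841 in LPS-activated and 0.977 to 1.02 in IFN-β-treated DCs, so the scaling itself separated the groups. With scaling by library size only, the median over all genes shifted on the log2 scale by -0.58 under LPS, by -0.31 under IFN-β and by 0.27 for IFN-β against LPS. The summed level of the 6 DC markers was 4243 to 5067 CPM in unstimulated, 5735 to 6409 in LPS-activated and 4718 to 4986 in IFN-β-treated libraries. For the 5 macrophage markers it was 1662 to 2104, 1864 to 2416 and 2365 to 2692 CPM in the same order, and no marker of either list was at 0 in a group. The sums hide markers that moved apart: under LPS *Csf1r* was at 546 to 589 CPM against 1026 to 1198 without stimulation, whereas *Mertk* was at 372 to 449 against 110 to 134, *Adgre1* at 305 to 453 against 121 to 212 and *Fcgr1* at 382 to 560 against 70.5 to 132 CPM. *Batf3*, a DC marker, was at 9.73 to 16.6 CPM under LPS against 21.1 to 25.0 without stimulation. *Zbtb46*, another DC marker, was at 47.2 to 57.4 CPM under LPS against 27.8 to 36.8. The DC markers *Itgax* and *Cd74* were also higher in every LPS library, whereas *H2-Ab1* and *Flt3* overlapped. Markers moved apart under IFN-β too, with *Fcgr1* at 505 to 650 CPM and *Mertk* at 252 to 292, above all unstimulated libraries. The IFN-β libraries of *Csf1r*, *Adgre1*, *Cd68* and the 6 DC markers overlapped the unstimulated ones. The 6 neutrophil markers summed to at most 22.5 CPM, the 5 B cell markers to at most 0.531 and the 4 T and NK cell markers to at most 0.184 in any library. The part of a change in cell composition in the results that follow was not tested, and fewer cells of a type cannot be told apart from less RNA per cell in bulk samples. Of the response markers, *Il12b* was at 3459 to 3822 CPM in the LPS libraries and at most 4.92 elsewhere. *Mx1* was at 1283 to 1484 CPM in the IFN-β libraries against 111 to 142 without stimulation. It was higher still in the LPS libraries, at 2421 to 2817 CPM, so it did not set the IFN-β label apart. *Ifit1* was at 1962 to 2767 CPM under LPS against 727 to 894 under IFN-β, and *Isg15* at 773 to 1002 against 402 to 451.

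At rest, the clock genes differed widely in level. Divided by the length of their annotated exons, *Bhlhe40* was by far the most abundant in unstimulated DCs, at 90.3 ± 21.5 RPKM (SD, n = 3). The next were *Cry1* at 5.79 ± 0.892, *Per1* at 5.33 ± 0.395 and *Clock* at 4.40 ± 0.190 RPKM, of which *Cry1* and *Per1* overlapped. *Per2* and *Nr1d2* stood at 2.41 ± 0.223 and 2.26 ± 0.337 RPKM and overlapped, and *Cry2* at 1.26 ± 0.0724 RPKM. The lowest were *Per3*, *Dbp* and *Nr1d1*, at 0.684 ± 0.0696, 0.655 ± 0.153 and 0.542 ± 0.142 RPKM, which did not differ beyond their spread. With the longest transcript as the length, *Cry1* and *Per1* changed places, as did *Per2* and *Nr1d2*. *Bhlhe40* also ranked the highest under both stimuli, and *Dbp* was the lowest under LPS, at 0.115 ± 0.0255 RPKM.

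**Figure D1:**
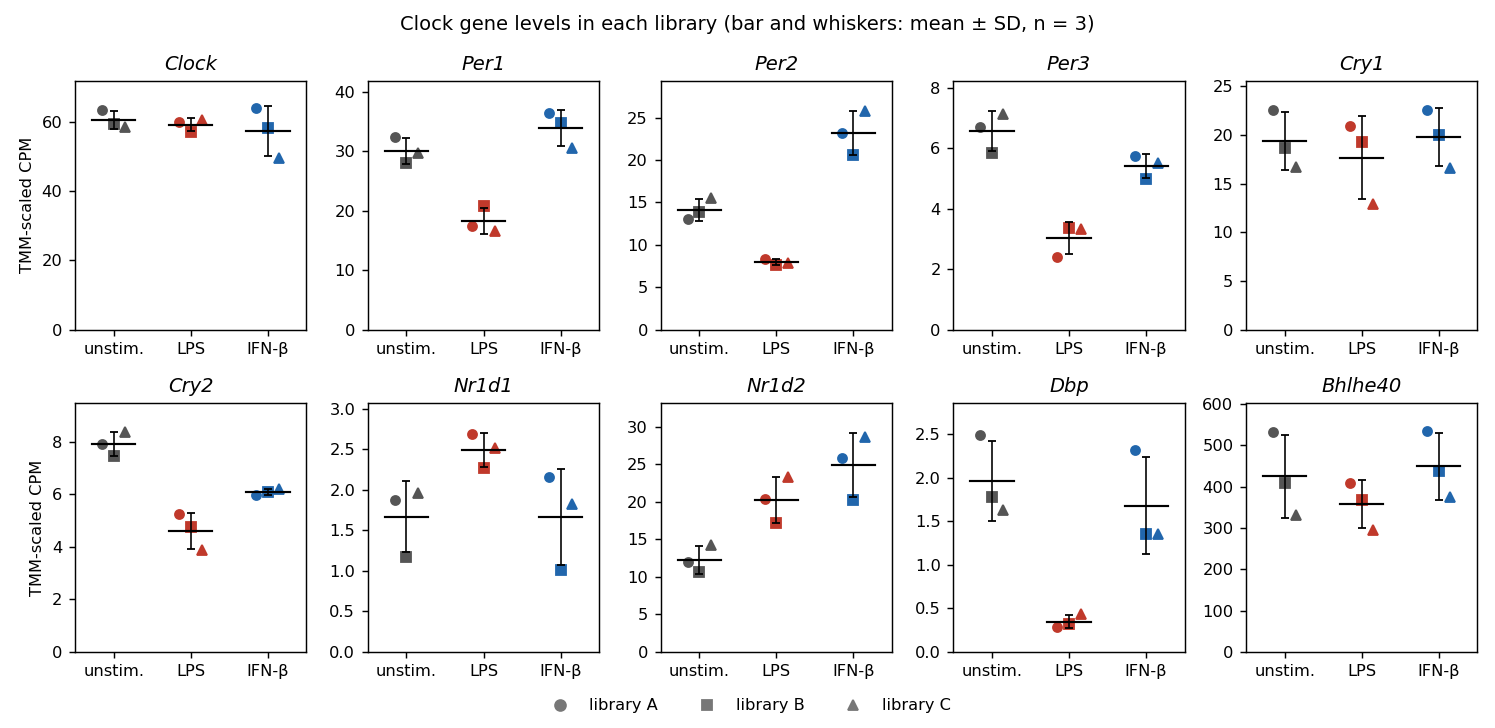
TMM-scaled CPM (y axis, linear and starting at 0) of each clock gene in the 9 libraries by condition; symbols give the library letter, bars and whiskers the mean ± SD of 3 libraries. The LPS libraries of *Per1*, *Per2*, *Per3*, *Cry2* and *Dbp* lie below all unstimulated libraries. Those of *Nr1d2* lie above them, as do those of *Nr1d1*, whose change did not pass the threshold.

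LPS lowered 5 of the 10 clock genes, *Per1*, *Per2*, *Per3*, *Cry2* and *Dbp*, and raised 1, *Nr1d2*. *Clock*, *Cry1*, *Nr1d1* and *Bhlhe40* did not pass the threshold, an adjusted p-value under 0.05 from edgeR's quasi-likelihood test. The 6 genes called compare with 68.2% of all 16260 genes tested, the 5 lower with 35.4% of all genes and the 1 higher with 32.8%, so the share of clock genes changed was close to that of genes at large. With scaling by library size only, none of the 10 was higher and 8 were lower, where 17.1% of all genes were higher and 60.9% lower. With the library letters as a block, 2 were higher and 6 lower, where 35.4% of all genes were higher and 38.1% lower. The median log2 fold change was -0.48 over the 10 clock genes and -0.04 over all genes tested. IFN-β, against the same unstimulated libraries, raised 2 clock genes, *Per2* and *Nr1d2*, and lowered 1, *Cry2*, where 46.9% of all genes were called (23.6% higher, 23.3% lower). With library size only, 2 were higher and 3 lower, where 13.2% of all genes were higher and 46% lower, and with the library letters as a block the counts were again 2 and 1, where 27.9% were higher and 28.4% lower. The median log2 fold change was 0.02 for the clock genes and -0.02 for all genes. Compared directly, 5 clock genes were higher under IFN-β than under LPS and none was lower, where 25.8% of all genes were higher, 23.3% lower and 49.1% called. These 5 were the genes that fell under LPS, and both comparisons use the same LPS libraries. With the library letters as a block, 8 clock genes differed between IFN-β and LPS (7 higher, 1 lower under IFN-β), where 58% of all genes did (30.3% higher, 27.6% lower). With library size only 9 differed, all higher under IFN-β, where 55.5% of all genes differed (43.2% higher, 12.3% lower).

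**Figure D2:**
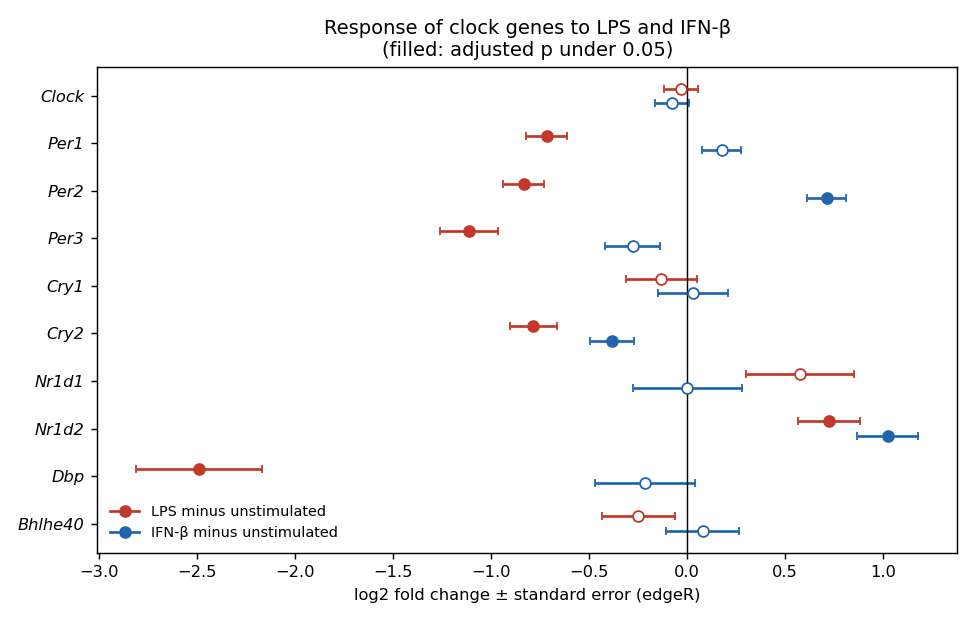
Log2 fold change (x axis) of each clock gene under LPS and IFN-β relative to unstimulated DCs; whiskers are standard errors from the edgeR fit and filled points passed an adjusted p of 0.05. *Per2* lies at -0.83 under LPS and 0.71 under IFN-β, whereas *Nr1d2* lies above 0 under both.

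*Clock*, which encodes the activating subunit, was at 63.4, 59.4 and 58.5 CPM (counts relative to the TMM-scaled library size) without stimulation, 60.1, 57.0 and 60.5 with LPS, and 64.0, 58.2 and 49.7 with IFN-β. The 3 groups overlapped. The log2 fold change was -0.03 under LPS (95% interval -0.22 to 0.16, adjusted p = 0.778) and -0.08 under IFN-β (95% interval -0.27 to 0.12, adjusted p = 0.505). This result rested on the scaling, because with library size only *Clock* was lower under LPS by -0.61 on the log2 scale (adjusted p = 5.55e-05) and under IFN-β by -0.38 (adjusted p = 0.00301). Its gene lies on chromosome 5 of GRCm38, on the minus strand from 76209868 to 76304792.

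The *Per* genes encode repressors of CLOCK and BMAL1. *Per1* (chromosome 11, 69095217 to 69109960) was at 32.4, 27.96 and 29.8 CPM without stimulation and at 17.4, 20.7 and 16.6 CPM with LPS. The IFN-β libraries had 36.5, 34.7 and 30.6 CPM. All LPS libraries lay below all others, and the IFN-β libraries overlapped those without stimulation. *Per1* thus fell 1.64-fold under LPS (log2 fold change -0.72, standard error (SE) 0.10, adjusted p = 9.85e-05), and its change under IFN-β was 0.18 (95% interval -0.05 to 0.40, adjusted p = 0.177). The 2 stimuli differed by 0.89 on the log2 scale (adjusted p = 4.3e-05).

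*Per2* (chromosome 1, 91415982 to 91459324) moved in opposite directions. Its level was 13.0, 13.9 and 15.6 CPM without stimulation, 8.35, 7.63 and 7.86 CPM with LPS and 23.2, 20.6 and 25.7 CPM with IFN-β. No 2 of the 3 groups overlapped. It fell 1.78-fold under LPS (log2 fold change -0.83, SE 0.10, adjusted p = 3.44e-05) and rose 1.64-fold under IFN-β (log2 fold change 0.71, SE 0.10, adjusted p = 0.000221). Between IFN-β and LPS the level differed 2.92-fold, with a log2 difference of 1.54 (SE 0.10, adjusted p = 8.88e-07). *Per2* was the only one of the 10 clock genes past the threshold in opposite directions, and it kept both calls under each of the 16 alternative fits, with a log2 fold change of -1.42 to -0.76 under LPS and of 0.40 to 0.79 under IFN-β.

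*Per3* (chromosome 4, 151003652 to 151044665), the *Per* gene with the lowest level, had 6.71, 5.84 and 7.15 CPM without stimulation, 2.41, 3.35 and 3.32 CPM with LPS and 5.74, 4.99 and 5.52 CPM with IFN-β. It fell 2.16-fold under LPS (log2 fold change -1.11, SE 0.15, adjusted p = 5.13e-05). The IFN-β libraries also lay below the unstimulated ones, with a change of -0.28 that did not pass the threshold (95% interval -0.58 to 0.03, adjusted p = 0.128) and was -0.59 with scaling by library size only (adjusted p = 0.0069). The IFN-β level was higher than that with LPS by 0.84 on the log2 scale (adjusted p = 0.000848).

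The cryptochromes *Cry1* and *Cry2* encode the partners of the PER proteins in repression. *Cry2* (chromosome 2, 92403646 to 92434043) was at 7.93, 7.48 and 8.39 CPM without stimulation, 5.24, 4.75 and 3.87 CPM with LPS and 5.97, 6.08 and 6.21 CPM with IFN-β, and no 2 groups overlapped. *Cry2* fell 1.72-fold under LPS (log2 fold change -0.78, SE 0.12, adjusted p = 0.000139) and 1.30-fold under IFN-β (log2 fold change -0.38, SE 0.11, adjusted p = 0.0184). With TMM scaling it was the only one of the 10 to pass the threshold as lower under both stimuli. The fall under IFN-β did not pass the threshold without unstimulated library C (adjusted p = 0.0649) or without IFN-β library B (adjusted p = 0.0522). The difference of 0.40 between IFN-β and LPS (adjusted p = 0.017) did not pass it without LPS library C (0.28, adjusted p = 0.0608). *Cry1* (chromosome 10, 85131700 to 85185064) had 22.6, 18.7 and 16.7 CPM without stimulation, 20.9, 19.2 and 12.9 CPM with LPS and 22.6, 19.97 and 16.7 CPM with IFN-β. The groups overlapped throughout, and the log2 fold change was -0.13 under LPS (95% interval -0.53 to 0.27) and 0.03 under IFN-β (95% interval -0.37 to 0.43). With scaling by library size only, *Cry1* was lower under LPS by -0.71 on the log2 scale (adjusted p = 0.00202).

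Of the REV-ERB genes, *Nr1d2* rose under both stimuli and *Nr1d1* passed the threshold under neither. *Nr1d2* (chromosome 14, 18204054 to 18239127) had 11.99, 10.6 and 14.2 CPM without stimulation, 20.3, 17.2 and 23.3 CPM with LPS and 25.9, 20.3 and 28.6 CPM with IFN-β. All stimulated libraries lay above all unstimulated ones, and the LPS and IFN-β libraries overlapped. *Nr1d2* rose 1.65-fold under LPS (log2 fold change 0.73, SE 0.16, adjusted p = 0.00175) and 2.03-fold under IFN-β (1.02, SE 0.16, adjusted p = 0.000378). The rise under LPS was 0.14 with scaling by library size only (adjusted p = 0.421), whereas the rise under IFN-β passed the threshold under each of the 16 alternative fits. The difference of 0.30 between IFN-β and LPS did not pass (95% interval -0.04 to 0.64, adjusted p = 0.132), but did with the library letters as a block (0.30, adjusted p = 0.00157) and without IFN-β library B (0.43, adjusted p = 0.0434). It was 0.19 without LPS library B and also without IFN-β library C (adjusted p = 0.392 and 0.38), and it passed with library size only (0.57, adjusted p = 0.00849) and without a filter on low counts (0.32, adjusted p = 0.0358).

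*Nr1d1* (chromosome 11, 98767932 to 98775333) was low, with 74, 52 and 87 raw counts in the unstimulated libraries, 76, 78 and 82 with LPS and 92, 38 and 66 with IFN-β. Scaled, these were 1.88, 1.17 and 1.96 CPM, 2.69, 2.27 and 2.52 CPM, and 2.15, 1.01 and 1.82 CPM. The LPS libraries lay above all others, with a log2 fold change of 0.58 that did not pass the threshold (SE 0.28, adjusted p = 0.0843). It passed with the library letters as a block (0.60, adjusted p = 0.00854) and narrowly without IFN-β library B (0.58, adjusted p = 0.0368), without a filter on low counts (0.56, adjusted p = 0.0479) and in a fit of the 2 compared groups (0.57, adjusted p = 0.0487). It was 0.37 without unstimulated library B (adjusted p = 0.277) and -0.0033 with scaling by library size only. Under IFN-β the change was 0.00 (95% interval -0.61 to 0.62). With the block, *Nr1d1* was also lower under IFN-β than under LPS by -0.61 on the log2 scale (adjusted p = 0.0114, against -0.58 and 0.11 without the block), as it was without IFN-β library A (-0.82, adjusted p = 0.0477). Without IFN-β library B this difference was -0.32 (adjusted p = 0.321), and it did not pass with any of the other libraries left out. Exons of *Nr1d1* overlap those of *Thra*, a thyroid hormone receptor gene on the other strand, over 263 bases or 8.55% of its exon length. *Thra* had more counts than *Nr1d1*, with 242 to 376 without stimulation, 250 to 348 with LPS and 234 to 513 with IFN-β.

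*Dbp* (chromosome 7, 45705088 to 45710203), the output gene, showed the largest fall among the 10. Its raw counts were 98, 79 and 72 without stimulation, 8, 11 and 14 with LPS and 99, 51 and 49 with IFN-β, which correspond to 2.48, 1.77 and 1.62 CPM, 0.283, 0.320 and 0.430 CPM, and 2.32, 1.35 and 1.35 CPM. The LPS libraries were far below all others, and those with IFN-β overlapped the unstimulated ones. The decrease under LPS was 5.603-fold (log2 fold change -2.49, SE 0.32, adjusted p = 4.38e-05), and the change under IFN-β was -0.21 (95% interval -0.78 to 0.35, adjusted p = 0.524). IFN-β and LPS differed by 2.27 on the log2 scale (adjusted p = 0.000199). Of the exon length of *Dbp*, 18.0% overlaps *Sphk2*, a sphingosine kinase gene on the other strand, which had 2447 to 2699 raw counts without stimulation, 2827 to 3419 with LPS and 2827 to 3711 with IFN-β. Of 477 genes whose exons lie wholly within exons of the other strand in GENCODE M21, 38 had at least 100 counts over the 9 libraries. The release used for the counting is uncertain, so these counts cannot tell whether strand was regarded. The strand setting is not given in the sources used here, and a part of opposite-strand reads in the *Dbp* counts was not tested.

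*Bhlhe40* (chromosome 6, 108660629 to 108666925), which encodes the E-box repressor DEC1, had 533, 409 and 332 CPM without stimulation, 410, 368 and 294 CPM with LPS and 536, 438 and 374 CPM with IFN-β. The groups overlapped because the libraries of each group differed, with library A the highest and library C the lowest in all 3 groups. Neither stimulus gave a call, with log2 fold changes of -0.25 for LPS (95% interval -0.66 to 0.16, adjusted p = 0.255) and 0.08 for IFN-β (95% interval -0.33 to 0.49, adjusted p = 0.749). The value for LPS was -0.83 with scaling by library size only (adjusted p = 0.000646). It was -0.06 without unstimulated library A (adjusted p = 0.775), -0.13 without LPS library C (adjusted p = 0.593) and -0.41 without unstimulated library C (adjusted p = 0.0648). With the letters as a block the fall under LPS passed the threshold (-0.24, SE 0.06, adjusted p = 0.00446), and so did the difference of 0.33 between IFN-β and LPS (adjusted p = 6e-04, against 0.167 without the block). That difference was 0.20 without LPS library C (adjusted p = 0.441) and 0.18 without IFN-β library A (adjusted p = 0.482), and it passed with library size only (0.61, adjusted p = 0.00786) and without a filter on low counts (0.35, adjusted p = 0.0207).

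For each of these comparisons, an exact permutation test over 3 libraries against 3 cannot go below p = 0.1. Groups without overlap, which reach that value, were found for 7 of the 10 clock genes under LPS, 4 under IFN-β and 6 between IFN-β and LPS, where 72.4%, 58.1% and 56.8% of all genes tested had none. The falls of *Per1*, *Per2*, *Per3*, *Cry2* and *Dbp* under LPS passed the threshold in every alternative fit that tested them, 16 for each gene and 15 for *Dbp*. Their log2 fold changes with 1 library left out at a time stayed between -0.82 and -0.65, -0.90 and -0.76, -1.20 and -0.98, -0.88 and -0.67, and -2.68 and -2.29, in the same order.

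The ratio of 2 related genes within a library does not depend on how libraries are scaled. The log2 ratio of *Per1* to *Per2* counts was 1.32, 1.01 and 0.93 without stimulation, 1.06, 1.44 and 1.08 with LPS and 0.65, 0.75 and 0.25 with IFN-β. The ratio was therefore lower in all 3 IFN-β libraries, by -0.54 on average (exact permutation test, two-sided, p = 0.1), and overlapped under LPS (change 0.11, exact permutation p = 0.5). The log2 ratio of *Cry1* to *Cry2* was 1.51, 1.32 and 0.99 without stimulation and 1.99, 2.01 and 1.73 with LPS, higher in all 3 LPS libraries by 0.64 on average (exact permutation p = 0.1). With IFN-β it was 1.92, 1.71 and 1.42 and overlapped (change 0.41, exact permutation p = 0.2). The ratio of *Nr1d1* to *Nr1d2* was -2.67, -3.17 and -2.85 without stimulation, -2.91, -2.91 and -3.20 with LPS and -3.58, -4.31 and -3.96 with IFN-β. It was lower in all 3 IFN-β libraries, by -1.06 on average (exact permutation p = 0.1), and overlapped under LPS (change -0.11, exact permutation p = 0.5). This ratio rests on 38 to 92 raw counts of *Nr1d1* per library. With TMM scaling the log2 fold change under IFN-β was 0.00 for *Nr1d1* and 1.02 for *Nr1d2*, so the lower ratio restates the rise of *Nr1d2*. Within library letters, a comparison chosen after the values had been seen, *Cry1* to *Cry2* rose in all 3 letters under both stimuli, by 0.49, 0.69 and 0.74 with LPS and by 0.41, 0.39 and 0.43 with IFN-β. The other ratios that were lower under IFN-β were lower in all 3 letters, by -0.66, -0.26 and -0.69 for *Per1* to *Per2* and by -0.91, -1.14 and -1.12 for *Nr1d1* to *Nr1d2*. Under LPS these 2 ratios changed in different directions between letters. An exact sign-flip test over 3 letters cannot go below p = 0.25, the value it gave for each of the 4 changes with 1 direction in all letters.

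**Figure D3:**
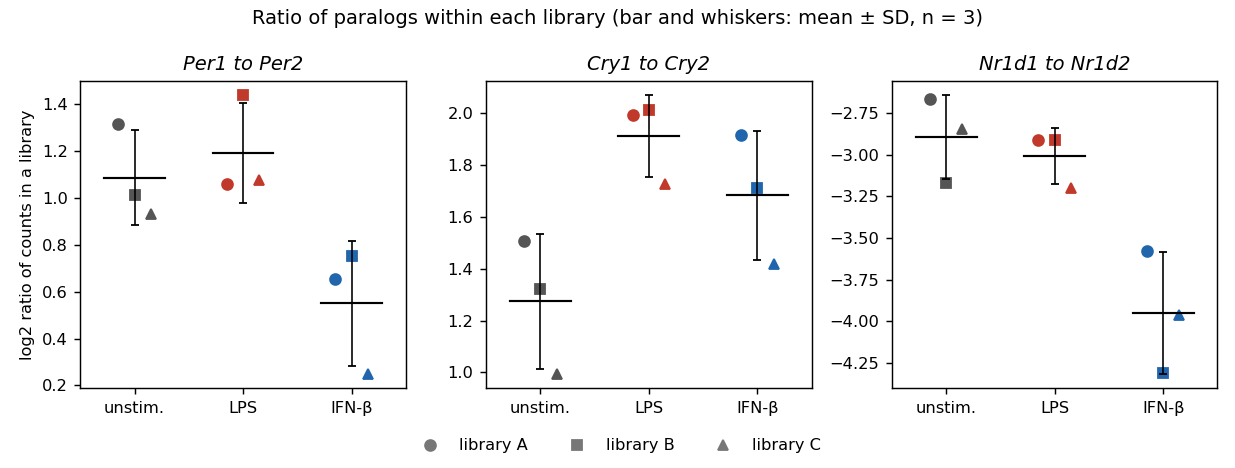
Log2 ratio of the raw counts of paralogous clock genes within each library (y axis, a different range in each panel) by condition; symbols give the library letter, bars and whiskers the mean ± SD of 3 libraries. The IFN-β libraries lie below the unstimulated ones for *Per1* to *Per2* and *Nr1d1* to *Nr1d2*, and the LPS libraries lie above them for *Cry1* to *Cry2*.

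Libraries with the same letter deviated together from their group means, and some clock genes carried this variation more than others. In the fit with the letters as a block, the letter term passed an adjusted p of 0.05 for 3 of the 10 clock genes and for 13.3% of all genes tested. This test was chosen after the values had been seen. The 3 genes were *Bhlhe40* (adjusted p = 0.000218), *Nr1d2* (adjusted p = 0.00151) and *Cry1* (adjusted p = 0.00244). *Bhlhe40* and *Cry1* were the highest in library A and the lowest in library C of every group, with library C below library A by -0.56 and -0.52 on the log2 scale. *Nr1d2* had another order, with library C the highest and library B the lowest in every group. The letter term did not pass for *Clock*, *Per1*, *Per2*, *Per3*, *Cry2*, *Nr1d1* or *Dbp* (adjusted p of 0.0673 for *Nr1d1* and above that for the others). What the letters stand for is not given in the sources used here.

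**Figure D4:**
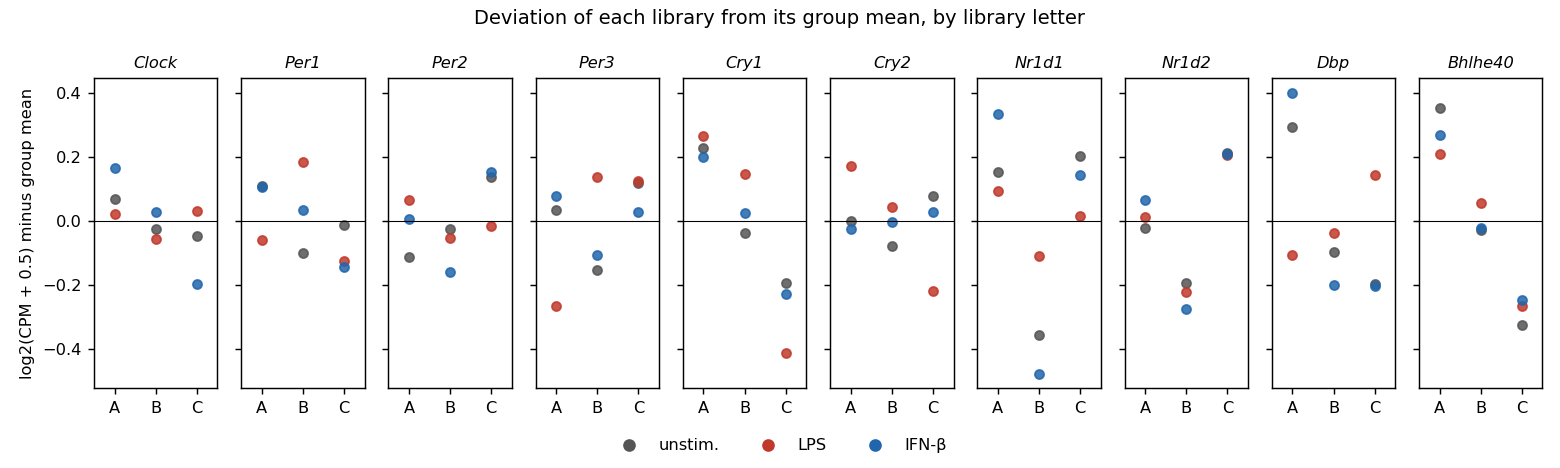
Deviation of each library from its group mean, in log2(CPM + 0.5) (y axis), against the library letter (x axis) for each clock gene, with 1 point per condition and letter. The points of the 3 conditions lie close together at each letter for *Bhlhe40*, *Nr1d2* and *Cry1*, and are spread for *Cry2* and *Per3*.

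Other genes of the clock were taken from lists of 41 genes in 5 groups, of which 37 passed the filter on low counts. Under LPS, 13 of them rose and 17 fell. Under IFN-β, 11 rose and 4 fell, and compared with LPS 14 were higher and 13 lower under IFN-β. The 30, 15 and 27 genes called compare with 68.2%, 46.9% and 49.1% of all genes tested, shares that also serve as the background of each list below. The split depended on the scaling, with 6 higher and 24 lower under LPS, and 6 higher and 19 lower under IFN-β, with library size only, where 78% and 59.2% of all genes were called. With the library letters as a block, 14 rose and 9 fell under IFN-β, where 56.3% of all genes were called.

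Among 9 tested partners and paralogs of the 10 genes, 2 rose and 5 fell under LPS, 3 rose under IFN-β, and all 9 differed between the stimuli. With library size only, 1 rose and 6 fell under LPS, 2 rose and 3 fell under IFN-β, and 7 differed between the stimuli, and with the block 5 rose and 2 fell under IFN-β. *Arntl*, which encodes BMAL1, the partner of CLOCK, fell from 14.3 ± 0.757 to 11.2 ± 1.32 CPM under LPS (SD, n = 3; log2 fold change -0.35, adjusted p = 0.00704) and was at 14.2 ± 0.625 CPM with IFN-β, where its log2 fold change of -0.01 became -0.32 with library size only (adjusted p = 0.0173). *Npas2*, whose product can stand in for CLOCK, fell by 2.01 on the log2 scale under LPS (adjusted p = 0.00362), and *Rora*, the activator opposed by the REV-ERB proteins, fell by 0.70 (adjusted p = 0.00217). *Tef*, a paralog of *Dbp* that binds the same D-boxes, fell from 23.9 ± 1.95 to 8.20 ± 0.202 CPM (SD, n = 3; log2 fold change -1.54, adjusted p = 6.35e-08), with 20.7 ± 1.07 CPM under IFN-β (log2 fold change -0.21, adjusted p = 0.0535, and -0.51 and 3e-04 with library size only). *Nfil3*, a repressor at D-boxes, rose under LPS by 0.69 (adjusted p = 0.000997), which was 0.11 with scaling by library size only (adjusted p = 0.395). *Ciart*, which encodes the repressor CHRONO, had a log2 fold change of -0.96 under LPS (adjusted p = 0.00436) and 0.70 under IFN-β (adjusted p = 0.0174), opposite signs like those of *Per2*; the rise was 0.40 with library size only (adjusted p = 0.119). *Bhlhe41*, the paralog of *Bhlhe40*, rose under IFN-β by 0.80 (adjusted p = 0.00261) and had a log2 fold change of -0.29 under LPS (adjusted p = 0.137, and -0.87 and 0.000203 with library size only), and *Arntl2*, the paralog of *Arntl*, was lower under IFN-β than under LPS by -1.44 (adjusted p = 0.0298, and 0.062 with library size only). *Timeless*, best known in mammals for DNA replication, rose under both, by 2.47 and 1.88 (adjusted p = 1.45e-08 and 9.37e-07).

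Of 8 tested enzymes and ligases that act on clock proteins, 5 rose and 2 fell under LPS and 5 rose under IFN-β, where library size only gave 2 higher and 3 lower, and 2 higher and 2 lower. *Fbxw11*, which encodes a subunit of a ligase that marks PER proteins for degradation, rose by 1.43 with LPS and by 0.81 with IFN-β (adjusted p = 2.5e-07 and 6.04e-05). *Usp2*, a deubiquitinase gene and a known clock output, fell by 1.93 under LPS (adjusted p = 4.47e-05), with -0.19 under IFN-β (adjusted p = 0.497). Of 6 corepressor genes of the REV-ERB proteins, 1 rose and 2 fell under each stimulus, none of them by as much as 1 on the log2 scale. Library size only gave 5 lower and none higher under each. Of 9 genes of the cAMP and glucocorticoid inputs to *Per* transcription, 3 rose and 5 fell under LPS, and 1 rose and 2 fell under IFN-β, or 1 and 7 with library size only. *Nr3c1*, the glucocorticoid receptor gene, rose by 1.33 and 0.67 (adjusted p = 3.29e-06 and 0.00121), and *Tsc22d3*, a target of that receptor, fell by 3.12 under LPS (adjusted p = 3.94e-06), with 0.15 under IFN-β (adjusted p = 0.66). *Crtc3*, a coactivator gene of CREB, fell by 1.08 under LPS and fell by 0.50 under IFN-β (adjusted p = 1.23e-07 and 0.000116). All 5 output genes changed under LPS (2 higher, 3 lower) and 1 rose under IFN-β. With library size only, 1 was higher and 3 lower under LPS, and 1 higher and 2 lower under IFN-β, and with the block 2 rose and 1 fell under IFN-β. *Nampt*, an enzyme of NAD synthesis, rose by 2.08 and 1.33 (adjusted p = 5.12e-08 and 6.18e-06), and *Klf10*, a repressor gene, fell by 2.14 under LPS (adjusted p = 3.96e-07), with 0.19 under IFN-β (adjusted p = 0.281, and 0.00462 with the block). Of the genes named here from the 5 lists, the block also added calls for *Bhlhe41* under LPS (-0.28, adjusted p = 0.00191) and, under IFN-β, for *Tef* (-0.20, adjusted p = 0.0245), *Rora* (0.23, adjusted p = 0.031), *Nfil3* (0.34, adjusted p = 0.000233) and *Arntl2* (-1.19, adjusted p = 0.00176).

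**Figure D5:**
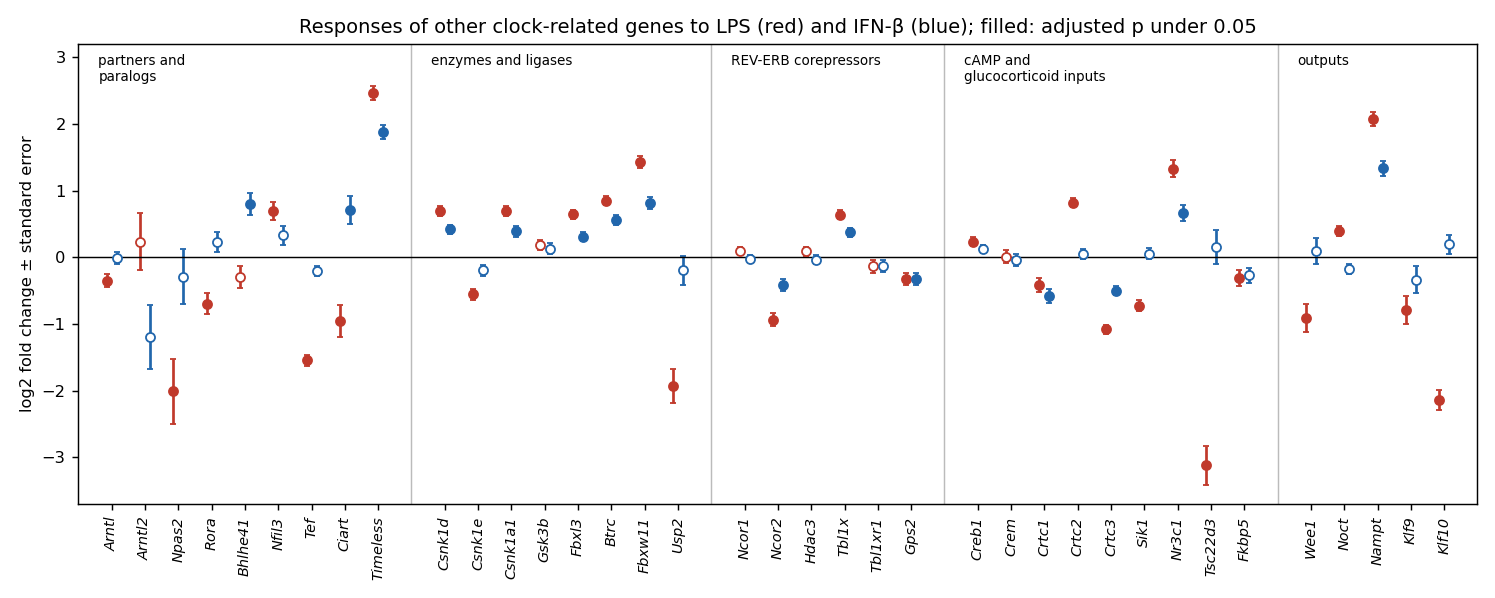
Log2 fold change with standard error (y axis) of the 37 tested genes of 5 clock-related lists (x axis) under LPS and IFN-β relative to unstimulated DCs; filled points passed an adjusted p of 0.05. Under LPS the genes range from *Tsc22d3* at -3.12 to *Timeless* at 2.47.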

How the data were processed

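RNA sequencing of 9 libraries was analysed. Per the submitters' processing notes and the methods, the authors trimmed adapters with Trim Galore 0.6.0, mapped reads to GRCm38 with STAR (2.7.8a in the notes, another version in the methods), counted reads per gene with STAR and deposited the raw counts, unnormalized. The methods name GENCODE M20, but 241 identifiers are numbered above the last of M21, so the release is uncertain, and exon lengths and RPKM may differ from those of the release used. The strand setting is not given in the sources used here. Of 55471 identifiers, 327 had no entry in GENCODE M21, which was used for coordinates and exon lengths.

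The counts were tested with edgeR 4.0.16 in R 4.3.3 (TMM factors, filterByExpr, quasi-likelihood F-tests, 1 term per condition, all 9 libraries), with Benjamini-Hochberg adjustment over 16260 genes and a threshold of 0.05. The standard error is the absolute log2 fold change divided by the square root of F. CPM use TMM-scaled library sizes, and RPKM divide them by exon length. Intervals cover the spread between libraries. Alternatives were DESeq2 1.42.0, other scalings, filters, thresholds and sample sets, and the library letter as a block. Same-letter libraries correlated in their deviations from the group means in all 9 pairs (r across genes of 0.13 to 0.55, genes not being independent), so the letters were taken to pair libraries. The main fit and the permutation tests leave this pairing out, and the fit with the block includes it. Replicates of a group differed by more than counting noise. The 10 genes and the lists were chosen with earlier results of these data known. Named are the 10 genes, genes overlapping them, *Arntl*, *Npas2*, *Rora*, *Nfil3*, listed genes called with an absolute log2 change of at least 1, and the gene with the most similar profile to each of the 10 (mean of at least 10 CPM, without predicted Gm and Rik symbols).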

Additional observations from a re-analysis of the deposited data

Results flagged for a closer look

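For 5 of the 10 clock genes the response to IFN-β differed from that to LPS by the test of the difference itself. The shared unstimulated libraries cancel in that test. It called 49.1% of all genes tested, 25.8% as higher and 23.3% as lower under IFN-β. The share of clock genes called was thus close to that of genes at large. *Dbp* was higher under IFN-β by 2.27 on the log2 scale (standard error 0.33), the log2 fold change being -2.49 with LPS and -0.21 with IFN-β. *Per2* differed by 1.54, *Per1* by 0.89, *Per3* by 0.84 and *Cry2* by 0.40. Of the 10 clock genes, 6 had no overlap between the IFN-β and LPS libraries, against 56.8% of all genes tested. The 5 genes called were among the 6, which adds no support, because the test of the difference used the same libraries. No group had enough libraries for a test of single outlying libraries.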

How the results depend on the processing

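The number of clock genes called was within 1.5 times its value under every alternative except the following. Scaling by library size only gave 5 clock genes changed under IFN-β (2 higher, 3 lower) and 9 that differed between IFN-β and LPS (all higher), and 25 of the other clock-related genes changed under IFN-β. The replicate block gave 8 clock genes that differed between IFN-β and LPS and 23 other clock-related genes changed under IFN-β. Requiring a log2 change of 1 or more in either direction left 2 clock genes under LPS, 1 under IFN-β and 2 between IFN-β and LPS. The share of all genes past that threshold was not counted, so whether these numbers are few or many cannot be said. The block changed no other call on the 10 genes than those of *Nr1d1*, *Nr1d2* and *Bhlhe40* given with their values above.

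Signs turned only in changes that did not pass the threshold with TMM scaling. With library size only the log2 value was 0.23 for *Clock* between IFN-β and LPS (adjusted p = 0.0434), -0.0033 for *Nr1d1* under LPS and, under IFN-β, -0.13 for *Per1*, -0.27 for *Cry1*, -0.31 for *Nr1d1* and -0.22 for *Bhlhe40*. Upper-quartile factors gave -0.045 for *Cry1* and -0.079 for *Nr1d1* under IFN-β, and DESeq2 gave 0.0098 for *Clock* under LPS. *Nr1d1* under IFN-β was -0.0030 with at least 10 counts in every library, -0.0047 with the 2 compared groups only and -0.010 with the block. With 1 library left out at a time, *Clock* ranged from -0.17 to 0.019 under IFN-β and from -0.14 to 0.047 between the stimuli, and *Cry1* from -0.26 to 0.054 under LPS, -0.083 to 0.15 under IFN-β and -0.028 to 0.29 between the stimuli. *Nr1d1* ranged from -0.24 to 0.26 and *Bhlhe40* from -0.071 to 0.27 under IFN-β. The fewer libraries or the other scaling are part of each alternative, and the cause was not tested further. *Dbp*, with 8 counts in 1 library, could not be tested with at least 10 counts in every library. Low counts limit *Nr1d1* and *Dbp*, and intervals on counts would cover counting error only. Some of the other clock-related genes named above are limited in the same way. Under LPS *Npas2* had 5 to 25 counts per library, *Ciart* 19 to 23 and *Usp2* 22 to 32. *Arntl2* had 10 to 29 counts per library with IFN-β and 29 to 66 with LPS.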

Other observations

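The gene with the most similar profile to each clock gene was sought among 7814 tested genes with a mean of at least 10 CPM, as the smallest root mean square difference in centred log2(CPM + 0.5) over the 9 libraries. The closest matches were *Srek1ip1* for *Clock* (0.056), *Hspa14* for *Cry2* (0.060), *Adam8* for *Per1* (0.070), *Rhobtb1* for *Cry1* (0.075) and *Ctsh* for *Bhlhe40* (0.084). Farther away were *Zfhx3* for *Per3* (0.10), *Fam3c* for *Per2* (0.14), *Irf2bp2* for *Dbp* (0.15), *Lpcat2* for *Nr1d2* (0.16) and *Idi1* for *Nr1d1* (0.18). For *Fam3c* the log2 fold change was -1.03 with LPS and 0.66 with IFN-β, against -0.83 and 0.71 for *Per2*. None of the 10 closest genes was itself on the lists of clock genes. The other exon overlaps with genes on the opposite strand were those of *Cry2* with *D930015M05Rik* (295 bases, at most 1 count in any library) and of *Bhlhe40* with *0610040F04Rik* (118 bases, 6 to 23 counts).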
